A study of Homo sapiens with 89 samples.

Results

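The comparison of wild type MYCN with MYCN 3A in SHEP cells rests on 6 of the 89 samples of the series, all sequenced as polyadenylated RNA. They were chosen by their sample titles, 3 labelled wild type MYCN and 3 labelled MYCN 3A, and all 57905 genes of the count table were examined. SHEP is a human neuroblastoma cell line of mesenchymal character. Per the labels, the cells carried a MYCN construct that doxycycline switches on, either the wild type protein or 3A, a triple mutant that is described as deficient in binding RNA, and both groups received 1 µg/ml doxycycline. The libraries labelled no MYCN, 3 in number, are SHEP too and received no doxycycline, so the drug differs between them and both other groups. The labels give neither the promoter of the constructs, nor whether each form came from 1 clone or a pool, nor which of the engineered populations served as no MYCN. They do not say whether the 3 replicates of a group were separate cultures either, so p-values measure the spread between these samples. A separate table of IMR-32, another neuroblastoma line, with 3 control libraries without doxycycline and 3 with an shRNA against EXOSC10 and 1 µg/ml doxycycline, was used for a side by side reading.

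MYCN belongs to the MYC family of transcription factors. Together with its partner MAX it binds the DNA sequence CACGTG, the E-box, and genes for ribosome production and for the synthesis of nucleotides and amino acids are among its best known targets. Amplification of the MYCN gene marks aggressive neuroblastoma. The nuclear RNA exosome is a complex that degrades RNA from its 3' end, with EXOSC10 as a nuclease subunit, and the title of the series calls MYCN an accessory protein of this complex that binds RNA. The comparison of the forms therefore asks which transcripts differ when the RNA-binding residues of MYCN are altered.

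The promoters of 5 genes from the groups of transcripts described below are printed here as examples. Each is the stretch of 250 bases before the annotated start, from RefSeq on GRCh38.p14, 5′ to 3′ on the strand of the gene. The motifs searched, on either strand, were GGGANNTTCC, the core of sites for NF-kB, GGAATG, the core of sites for TEAD factors, and CACGTG, and capitals mark only matches to the motif for which a promoter is shown. TNFAIP3 (chr6:137867009-137867258, plus strand) and CXCL1 (chr4:73869143-73869392, plus strand) carry the NF-kB core. ANKRD1 (chr10:90921088-90921337, minus strand) and CCN2 (chr6:131951373-131951622, minus strand) carry the TEAD core, and CDK4 (chr12:57752311-57752560, minus strand) carries the E-box. TNFAIP3 also holds CACGTG, and CCN2 also holds GGGANNTTCC, and these matches are not marked. CXCL1, CCN2 and CDK4 were chosen for their matches after the values were seen.
TNFAIP3: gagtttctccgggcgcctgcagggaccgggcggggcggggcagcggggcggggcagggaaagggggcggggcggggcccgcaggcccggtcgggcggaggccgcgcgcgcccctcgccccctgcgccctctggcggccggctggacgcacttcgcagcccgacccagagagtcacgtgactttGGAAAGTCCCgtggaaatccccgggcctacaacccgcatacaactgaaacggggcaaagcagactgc
CXCL1: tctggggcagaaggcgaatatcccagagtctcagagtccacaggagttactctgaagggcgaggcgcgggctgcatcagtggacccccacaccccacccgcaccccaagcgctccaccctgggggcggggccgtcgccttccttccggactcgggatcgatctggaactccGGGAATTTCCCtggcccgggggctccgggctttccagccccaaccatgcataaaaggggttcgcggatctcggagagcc
ANKRD1: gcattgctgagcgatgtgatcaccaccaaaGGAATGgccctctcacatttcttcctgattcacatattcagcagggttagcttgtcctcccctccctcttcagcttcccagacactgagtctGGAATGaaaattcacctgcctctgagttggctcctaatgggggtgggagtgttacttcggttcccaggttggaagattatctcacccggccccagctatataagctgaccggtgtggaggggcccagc
CCN2: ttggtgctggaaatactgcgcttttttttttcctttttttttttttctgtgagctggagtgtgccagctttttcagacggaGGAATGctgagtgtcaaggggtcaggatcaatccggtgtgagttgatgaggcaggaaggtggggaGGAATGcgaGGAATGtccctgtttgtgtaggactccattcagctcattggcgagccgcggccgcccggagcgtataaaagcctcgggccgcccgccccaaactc
CDK4: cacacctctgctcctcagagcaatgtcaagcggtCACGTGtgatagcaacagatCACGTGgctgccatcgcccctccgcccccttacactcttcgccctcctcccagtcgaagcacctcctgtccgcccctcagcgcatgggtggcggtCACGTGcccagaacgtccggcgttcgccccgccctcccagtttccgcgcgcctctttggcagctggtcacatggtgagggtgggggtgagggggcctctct

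The match in TNFAIP3 starts 67 bases before the start of the gene. The first 4 promoters belong to genes that were higher in the libraries labelled wild type than in those labelled 3A, and CDK4 to a gene that was not called between the forms. CXCL1 has a pair of overlapping matches, 1 on each strand, that start 79 and 78 bases before it. The TEAD core occurs 2 times in ANKRD1, 220 and 128 bases before the start, and 3 times in CCN2, 169, 104 and 95 bases before it. CDK4 holds 3 E-boxes. Of the tested genes, 10146 had a promoter in the RefSeq table. Over all of these, 1.40% held GGGANNTTCC, 9.46% held GGAATG and 8.90% held CACGTG in the same window. A match is a description of the letters and not evidence of binding.

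Counts of the MYCN gene do not check the labels. MYCN (ENSG00000134323, chr2:16080686-16087129 on hg19, plus strand) had 2, 0 and 0 counts in the libraries labelled wild type, 10, 0 and 0 in those labelled 3A and 4, 0 and 0 in those labelled no MYCN. Taking counts as independent, a count of 0 allows up to 3 counts, or 0.186 to 0.264 CPM (counts scaled to a library of 1e+06) in these libraries, counting error only. The bound is too low where both ends of a fragment count. The same gene had 22423, 22163 and 23420 counts in the IMR-32 controls, so reads of MYCN were countable in that line. The gene was too low to be tested in SHEP. Why transcripts of the constructs do not appear was not tested, and whether the forms were made in equal amounts cannot be told from these counts. The groups are therefore named by their labels throughout.

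The 9 SHEP libraries held 11638859 to 15353505 counts, and at most 2.7% of counts were mitochondrial. Principal component 1 (33.5% of the variance) set the 3 libraries labelled wild type apart from the other 6, and component 2 (22.7%) set no MYCN apart from 3A. Library 1 labelled wild type lay on the side of no MYCN on component 2 and was the one with the most counts in long transcripts. The summed level of 7 mesenchymal neuroblastoma markers (PRRX1, VIM, FN1, CD44, SNAI2, YAP1 and AXL) was 7272 to 7472 CPM in the libraries labelled wild type, 5381 to 5724 CPM in those labelled 3A and 5815 to 6123 CPM in those labelled no MYCN. Most of this sum was VIM, at 5029 to 5492, 4158 to 4538 and 4012 to 4322 CPM in the same order. FN1, at 283 to 450.0, 254 to 289.8 and 482 to 608 CPM, was lower with the label wild type than in no MYCN, and SNAI2, at 6.78 to 8.60, 9.93 to 12.5 and 11.4 to 13.1 CPM, was lowest with the label wild type. VIM lost its call between the forms without library 2 labelled wild type or library 2 labelled 3A (adjusted p = 0.059 to 0.066) in edgeR's test. It also lost its call with the offset for chromosome described below (difference 0.10, adjusted p = 0.39 in the same edgeR test). Of 7 adrenergic markers, TH and DBH were at 0 counts in all 9 libraries. The summed adrenergic markers reached 80.2 to 85.3, 82.4 to 87.7 and 69.98 to 73.9 CPM in the same order, most of it HAND2. Summed leukocyte markers reached 16.2 to 16.6, 9.49 to 13.3 and 12.6 to 14.9 CPM in the same order, nearly all of it CD68, endothelial markers 5.30 to 7.63, 9.25 to 14.8 and 6.87 to 8.28 CPM, nearly all EGFL7, and glial markers at most 4.03 CPM. In bulk RNA, fewer cells of a kind and less RNA per cell cannot be told apart, and the part of these markers in the results was not tested.

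Between the forms, 4527 of 14923 tested genes differed, or 30.3%, by the quasi-likelihood F test of edgeR after Benjamini-Hochberg adjustment at 0.05. In the libraries labelled wild type 2359 genes (15.8%) were higher and 2168 (14.5%) lower, among them 349 and 287 that differed at least 2-fold. For 40.4% of genes the ranges of the 2 groups of 3 did not overlap. Against no MYCN, 3315 genes (22.2%) differed in the libraries labelled wild type, 1634 higher and 1681 lower, and 3806 (25.5%) in those labelled 3A, 1893 higher and 1913 lower. The last count was 2166 without library 1 labelled no MYCN and 2508 without library 2. These comparisons share their samples, so their values are set side by side and not counted as support for each other. Scaled by library totals alone, the split against no MYCN was 1163 higher and 2147 lower for the label wild type and 1232 and 2928 for the label 3A. Of the genes that differed at least 2-fold from no MYCN, 200 were higher and 434 lower in the libraries labelled wild type, against 59 and 168 in those labelled 3A.

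Of the genes that the naming rule covers, ESM1 was the most raised in the libraries labelled wild type. ESM1 (ENSG00000164283, chr5:54273692-54318499 on hg19, as are the gene coordinates that follow), which codes for the secreted proteoglycan endocan, was at 49.6, 49.4 and 51.4 CPM in the libraries labelled wild type and 3.28, 4.22 and 3.15 CPM in those labelled 3A. With no MYCN it was at 2.44 ± 0.266 CPM (SD, n = 3), so the lowest library labelled wild type was more than 10-fold above every other library. The difference was 3.82 on the log2 scale (SE 0.16, adjusted p = 1.4e-13 in edgeR's test).

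SLIT2 (chr4:20254883-20622184), a guidance cue for axons and migrating cells, was at 76.9, 68.7 and 55.6 CPM in the libraries labelled wild type and 10.7, 14.6 and 13.6 CPM in those labelled 3A, with no MYCN at 15.6 ± 2.07 CPM (SD, n = 3). HAS2 (chr8:122624356-122653630), which makes hyaluronan, was at 32.5, 34.3 and 27.7 CPM (labelled wild type) and 5.82, 6.68 and 5.99 CPM (labelled 3A). CXCL12 (chr10:44793038-44881941), the chemokine that CXCR4 recognises, was at 39.9, 36.5 and 42.4 CPM (labelled wild type) and 7.98, 6.77 and 8.99 CPM (labelled 3A). Ranges of the 2 labels that do not overlap were a condition for the 15 most higher genes, these 3 among them. For these 3 the libraries labelled 3A differed from no MYCN by -0.27, -0.05 and -0.12, of which none passed the test (edgeR adjusted p = 0.21, 0.88 and 0.65). The differences between the forms were 2.37 (SE 0.15), 2.35 (SE 0.18) and 2.32 (SE 0.16). FST (chr5:52776239-52782964), the secreted inhibitor follistatin that binds activin, was at 66.2, 70.3 and 67.9 CPM (labelled wild type) and 20.4, 18.3 and 23.96 CPM (labelled 3A) and differed by 1.70 (SE 0.12).

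The other genes of the 15 most higher were ARHGAP22, a regulator of Rac, OAS3 and the NF-kB pathway genes TRAF1, TNFAIP3 and BIRC3, CAMK2N1, an inhibitor of the kinase CaMKII, PNMA2, ARCN1, a coatomer subunit, the noncoding LINC02864 and ADAMTSL1, with differences from 1.60 to 2.12. ARCN1 was the least steady of them, at 34.3, 18.5 and 11.4 CPM in the libraries labelled wild type and 8.20, 5.45 and 3.94 CPM in those labelled 3A. It lost its call without the library 3 labelled 3A (adjusted p = 0.062 in edgeR's test), and no MYCN was at 18.9 ± 6.10 CPM (SD, n = 3), near the label wild type. Of the 15 genes, all but ARCN1 were called in every setting that was tried.

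**Figure D1:**
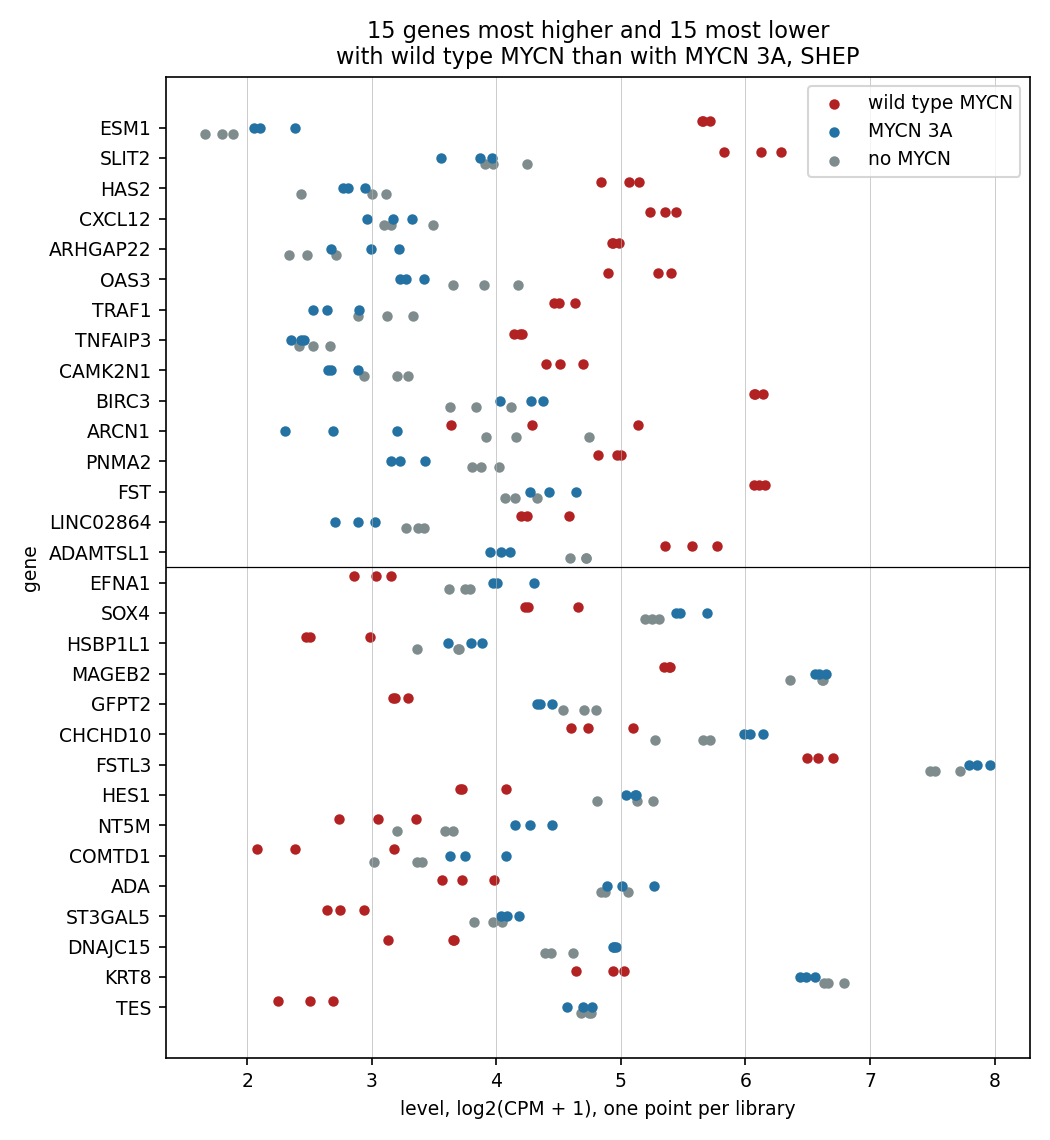
Level of the 15 genes most higher and the 15 most lower in the libraries labelled wild type than in those labelled 3A, as log2(CPM + 1) on the horizontal axis with a point for each of 9 libraries. The rule that chose these genes required that the points of the 2 labels do not overlap. ESM1 is the widest gap, from at most 4.22 CPM (labelled 3A) to at least 49.4 CPM (labelled wild type).

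Among the transcripts of that rule that were lower in the libraries labelled wild type, TES (chr7:115850547-115898837), a LIM protein of focal adhesions, stood first. It was at 3.74, 5.45 and 4.66 CPM in the libraries labelled wild type and 26.3, 24.96 and 22.7 CPM in those labelled 3A, with no MYCN at 25.5 ± 0.829 CPM (SD, n = 3), and the difference was -2.42 (SE 0.16, adjusted p = 6.8e-10 in edgeR's test). KRT8 (chr12:53290977-53343738), a keratin of simple epithelia, was at 23.9, 29.6 and 31.6 CPM (labelled wild type) and 85.6, 88.4 and 93.02 CPM (labelled 3A). Its partner KRT18 was at 584, 630.5 and 690.0 CPM (labelled wild type) and 875, 921 and 1084 CPM (labelled 3A). The 2 keratins made up nearly all of the summed epithelial markers, which reached 608 to 722 CPM in the libraries labelled wild type, 962 to 1178 CPM in those labelled 3A and 999.95 to 1143 CPM in those labelled no MYCN. The defining epithelial markers EPCAM, CDH1, KRT19 and ESRP1 were below 1 CPM in each of the 9 libraries, and CLDN4 was at 0.

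DNAJC15 (a mitochondrial cochaperone, -1.53, SE 0.15), ST3GAL5 (the synthase of ganglioside GM3, -1.47, SE 0.16) and ADA (adenosine deaminase, -1.37, SE 0.15) followed. HES1, a repressor downstream of Notch, was at 12.2, 15.8 and 12.1 CPM (labelled wild type) and 31.9, 33.8 and 33.5 CPM (labelled 3A). FSTL3, like FST an inhibitor of activin, was at 88.98, 94.7 and 103 CPM (labelled wild type) and 221, 249 and 231 CPM (labelled 3A), so the 2 follistatin family genes differed in opposite directions. SOX4, a transcription factor of progenitor cells, differed by -1.19 (SE 0.13) and CHCHD10, a protein of the mitochondrial intermembrane space, by -1.26 (SE 0.13). For HES1, MAGEB2 and TES the libraries labelled 3A were within 0.10 of no MYCN, at 0.02, 0.06 and -0.05 on the log2 scale. The remaining genes of the 15 most lower were COMTD1, NT5M, GFPT2, HSBP1L1 and EFNA1, with differences from -1.35 to -1.19.

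The genes were then read by pathway, in lists chosen with earlier results of these data known, each described by its counts and its median beside those of all genes (15.8% higher, 14.5% lower, median 0.003). The medians between the forms were 0.49 for the NF-kB list, 0.57 for ERK output, 0.55 for YAP targets, -0.33 for the respiratory chain and -0.24 for ribosomal proteins.

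**Figure D2:**
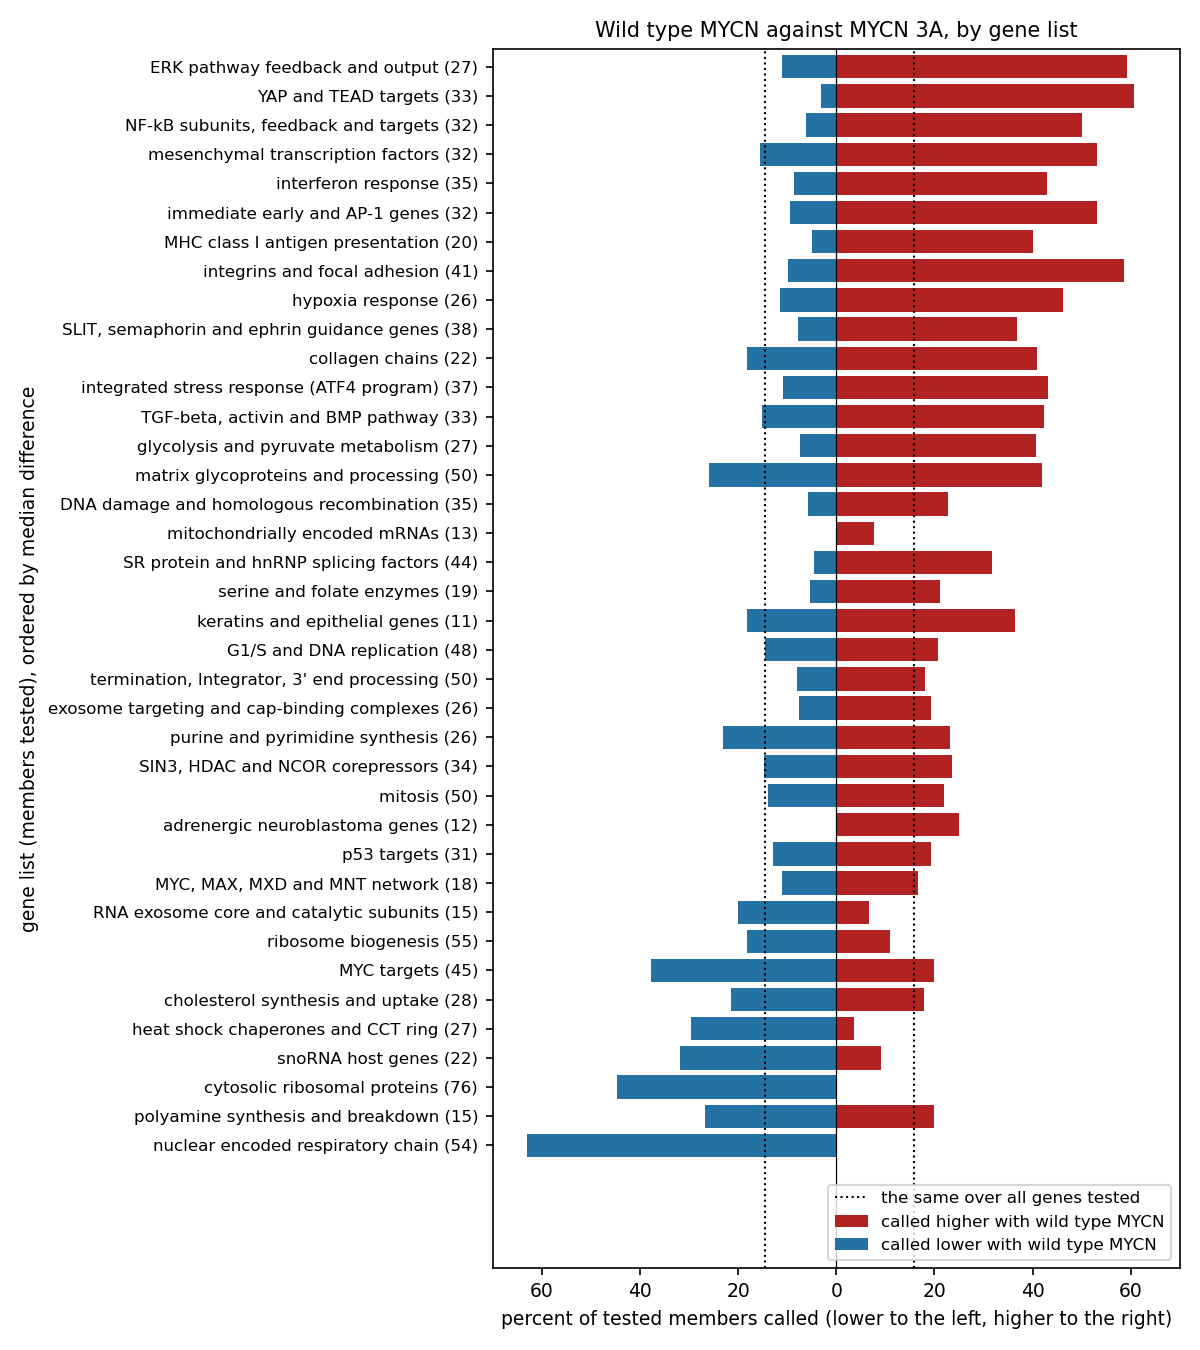
Percent of the tested members of each gene list called lower (left, blue) or higher (right, red) in the libraries labelled wild type than in those labelled 3A, lists ordered by their median difference. Dotted lines give the same over all genes, 14.5% lower and 15.8% higher; the respiratory chain list has 34 of 54 members lower and none higher.

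NF-kB is the family of dimeric transcription factors that answers TNF and other inflammatory signals, and many of its targets restrain it. In this list 16 of 32 tested genes were higher and 2 lower in the libraries labelled wild type, with a median of 0.49. TNFAIP3, the ubiquitin-editing enzyme A20 that ends NF-kB signalling, was at 17.4, 17.2 and 16.7 CPM in the libraries labelled wild type and 4.48, 4.40 and 4.10 CPM in those labelled 3A, and the 3 libraries of each label lay within a narrow band. BIRC3, an inhibitor of apoptosis and ubiquitin ligase of the pathway, was at 66.1, 66.6 and 69.4 CPM (labelled wild type) and 18.4, 19.7 and 15.3 CPM (labelled 3A), and TRAF1, an adaptor of TNF receptors, at 21.6, 23.8 and 21.04 CPM (labelled wild type) and 5.22, 4.75 and 6.46 CPM (labelled 3A). BIRC2, the close relative of BIRC3, was at 172, 172 and 163 CPM (labelled wild type) and 94.7, 84.8 and 75.7 CPM (labelled 3A). Their differences were 1.98 (SE 0.18), 1.92 (SE 0.13), 2.01 (SE 0.18) and 0.99 (SE 0.10) and their adjusted p in edgeR reached at most 1.9e-07.

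Among the subunits of the factor, RELB (1.01, SE 0.15), NFKB2 (0.86, SE 0.11), RELA (0.56, SE 0.09) and NFKB1 (0.37, SE 0.10) were higher and REL (0.17, SE 0.20) was not called. The chemokine genes CXCL8 (2.07, SE 0.22) and CXCL1 (1.41, SE 0.23) and the cytokine gene CSF1 (1.17, SE 0.13) were higher. CXCL8 was at 17.8, 14.9 and 14.7 CPM (labelled wild type) and 4.03, 2.64 and 4.57 CPM (labelled 3A). TNFAIP2 (-1.11, SE 0.39) and TNIP2 (-0.34, SE 0.12) were lower, but in edgeR's test TNFAIP2 lost its call without library 2 or 3 labelled wild type or library 1 or 3 labelled 3A (adjusted p = 0.074 to 0.12) and TNIP2 without library 2 labelled wild type or library 2 or 3 labelled 3A (adjusted p = 0.11 to 0.15). Of 27 promoters of the list, 10 held GGGANNTTCC, among them TNFAIP3, CXCL1, NFKB1, NFKBIA and REL. NFKBIA (0.19, SE 0.10), the inhibitor that NF-kB induces, lies on chromosome 14 and was called higher only with the offsets for chromosome or exonic length described below (0.35 to 0.61). Over all promoters the motif occurred in 1.75% of the genes called higher and 1.05% of those called lower. Against no MYCN the list median was 0.45 for the label wild type, with 17 genes higher and 1 lower, and 0.03 for the label 3A, with 2 and 3. In all settings tried, between 13 and 18 genes of the list were higher and at most 3 lower.

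The ERK kinases carry growth factor signals, and their output includes the feedback inhibitors of the SPRY, SPRED and DUSP families. Of this list 16 of 27 tested genes were higher and 3 lower, with a median of 0.57. SPRY4, an inhibitor of receptor tyrosine kinase signalling, was at 50.6, 49.01 and 49.00 CPM in the libraries labelled wild type and 18.1, 19.3 and 17.03 CPM in those labelled 3A, and CCND1, the cyclin that growth factors induce, at 857, 749.9 and 761 CPM (labelled wild type) and 328, 365 and 392 CPM (labelled 3A). PHLDA1 was at 113, 117 and 111 CPM (labelled wild type) and 55.5, 55.2 and 49.8 CPM (labelled 3A) and the ephrin receptor EPHA2 at 349, 311 and 298 CPM (labelled wild type) and 165, 182 and 170.0 CPM (labelled 3A). In each of these 4 genes the lowest library labelled wild type was above the highest labelled 3A. They were chosen by small p or after their values were seen. Over the list the ranges did not overlap in 24 of 27 genes, beside 40.4% of all tested genes. SPRED2 (0.98, SE 0.19), SPRED1 (0.57, SE 0.12) and the ERK phosphatases DUSP6 (0.97, SE 0.14), DUSP5 (0.73, SE 0.11) and DUSP7 (0.63, SE 0.10) were higher too. The genes that were lower were ETV4, an ETS factor (-0.41, SE 0.13), UPP1 (-0.78, SE 0.12) and the cytokine gene IL11 (-0.86, SE 0.14). ETV4 lost its call in edgeR's test without library 1 or 3 labelled wild type or library 3 labelled 3A (adjusted p = 0.062 to 0.1). Against no MYCN the list median was 0.50 for the label wild type and -0.14 for the label 3A.

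Immediate early genes are transcribed within minutes of a stimulus, and many code for subunits of the factor AP-1. In this list 17 of 32 tested genes were higher and 3 lower, with a median of 0.40. FOSL1, an AP-1 subunit, was at 383, 366 and 373 CPM in the libraries labelled wild type and 177, 153 and 188 CPM in those labelled 3A (difference 1.11, SE 0.08), and JUN at 113, 118 and 113 CPM (labelled wild type) and 58.3, 64.2 and 55.97 CPM (labelled 3A) (difference 0.94, SE 0.09). FOSL2 differed by 0.92 (SE 0.11) while FOS (0.66, SE 0.54) was not called in any setting. The ERBB ligands EREG (2.72, SE 0.49) and HBEGF (0.44, SE 0.12) were higher, EREG at only 3.58 ± 0.807 CPM (SD, n = 3) with the label wild type. ID1 (-0.44, SE 0.09) and ID2 (-0.85, SE 0.17), which inhibit helix-loop-helix factors, and RHOB (-0.38, SE 0.09) were lower, and RHOB lost its call with the offset for exonic length. The AP-1 motif TGANTCA was in 2.79% of the promoters of higher genes, 2.41% of those of lower genes and 2.57% of all.

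YAP and its relative TAZ act through the DNA-binding TEAD factors and report cell shape, tension and contact. Of their targets 20 of 33 tested genes were higher and 1 lower, with a median of 0.55. The median was 0.40 without library 1 labelled wild type and 0.37 with the offset for exonic length. The median exonic length of the list was 5979 bases. ANKRD1, a standard readout of YAP, was at 386, 394 and 375 CPM in the libraries labelled wild type and 206, 217 and 213 CPM in those labelled 3A. CCN1, a matricellular protein, was at 404, 423 and 419.5 CPM (labelled wild type) and 219, 232 and 207 CPM (labelled 3A), and CCN2, its relative, at 129, 140.2 and 136 CPM (labelled wild type) and 81.4, 80.1 and 67.1 CPM (labelled 3A). The receptor kinase AXL was at 938, 852 and 803 CPM (labelled wild type) and 443, 427 and 421 CPM (labelled 3A) and MYOF, a membrane repair protein, at 237, 177 and 155 CPM (labelled wild type) and 83.6, 97.05 and 92.3 CPM (labelled 3A). The labels did not overlap in any of these 5 genes, which were chosen by small p or after their values were seen. Over the list the ranges did not overlap in 23 of 33 genes, beside 40.4% of all tested genes. YAP1 itself (0.64, SE 0.12) and TEAD1 (0.76, SE 0.13) were higher, TEAD2 (-0.47, SE 0.17) was lower, and WWTR1, the gene of TAZ (0.12, SE 0.12), and TEAD3 (-0.07, SE 0.21) were not called. TEAD2 lost its call in edgeR's test without library 1 or 2 labelled wild type or library 1 or 3 labelled 3A (adjusted p = 0.078 to 0.13). GGAATG occurred in 7 of 24 promoters of the list, and in 9.79% of the promoters of all higher genes.

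Against no MYCN these genes lay on both sides. In the libraries labelled wild type 11 of 33 were higher and 3 lower (median 0.16), and in those labelled 3A 2 were higher and 18 lower (median -0.40). AXL, for example, was at 604 ± 8.58 CPM (SD, n = 3) with no MYCN, between the forms, and so was MYOF at 149.6 ± 15.7 CPM (SD, n = 3). ANKRD1 was at 233 ± 11.9 CPM (SD, n = 3) with no MYCN, close to the label 3A.

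**Figure D3:**
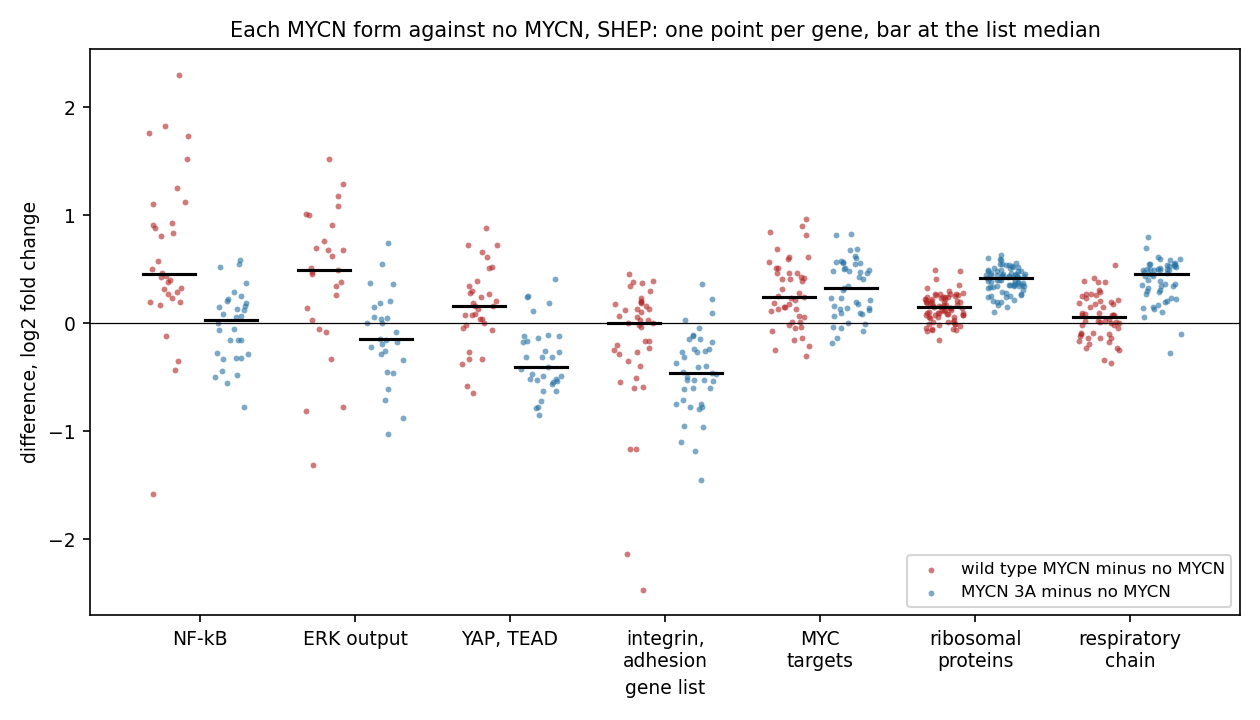
Log2 fold change of each gene of 7 lists against no MYCN, with a point per gene, for the libraries labelled wild type (red) and labelled 3A (blue), and a bar at the median. Both contrasts share the no MYCN libraries. The NF-kB medians were 0.45 and 0.03, those of MYC targets 0.24 and 0.33, and those of ribosomal proteins 0.15 and 0.42.

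Integrins join the cell to the matrix, and talin, vinculin and filamin tie them to actin. In this list 24 of 41 tested genes were higher and 4 lower (median 0.35). TLN1 (talin) was at 388, 283 and 251 CPM in the libraries labelled wild type and 148, 148 and 171 CPM in those labelled 3A, and library 1 labelled wild type was the highest. VCL (vinculin) was at 264, 207 and 182 CPM (labelled wild type) and 131, 130.2 and 121 CPM (labelled 3A) and ITGA6, an integrin that binds laminin, at 261, 211 and 189 CPM (labelled wild type) and 124, 129.9 and 107 CPM (labelled 3A). Against no MYCN, 23 of 41 were lower and 0 higher for the label 3A, and 10 lower and 3 higher for the label wild type. With an offset for exonic length 17 were higher and 6 lower between the forms, and without library 1 labelled wild type 17 and 3. TES, ITGB8, PARVB and CAV2 were the lower ones. In edgeR's test ITGB8 lost its call without library 1 or 2 labelled wild type or library 3 labelled 3A or library 1 or 2 labelled no MYCN (adjusted p = 0.056 to 0.28), with differences of -1.14 to -0.65, and CAV2 without library 1, 2 or 3 labelled wild type or library 1 or 2 labelled 3A or library 2 labelled no MYCN (adjusted p = 0.064 to 0.2). Of this list 2 were lower without library 2 labelled wild type or library 2 labelled no MYCN. The median exonic length of the list was 7901 bases, and its part in the result was not tested beyond that offset.

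Collagen chains went both ways: 9 of 22 tested genes were higher and 4 lower. COL13A1, a transmembrane collagen (1.25, SE 0.16), COL6A3 (1.16, SE 0.20) and COL8A1 (0.80, SE 0.09) were higher, and the fibrillar chain COL1A1 (-0.92, SE 0.09) was lower. COL1A1 was at 500.2, 399 and 405 CPM (labelled wild type) and 738, 848 and 875 CPM (labelled 3A), and no MYCN lay above both at 1519.6 ± 79.4 CPM (SD, n = 3). COL6A3 was at 32.9, 20.9 and 15.3 CPM (labelled wild type) and 11.2, 10.5 and 9.14 CPM (labelled 3A), a spread of more than 2-fold among the libraries labelled wild type. Without library 1 labelled wild type 4 collagen genes were higher and 5 lower. With the offset for exonic length 6 were higher and 7 lower, and with offsets for both exonic length and chromosome 7 and 7. The collagen median was 0.26, and 0.009 with both offsets, and the median exonic length of the list was 8631.5 bases. Among other matrix genes 21 of 50 tested genes were higher and 13 lower, and with both offsets 17 and 14. LOX, the enzyme that crosslinks collagen, was at 148, 133 and 123 CPM (labelled wild type) and 67.7, 62.9 and 54.4 CPM (labelled 3A), and the laminin chain LAMB3 at 125, 102 and 104 CPM (labelled wild type) and 60.1, 63.5 and 72.4 CPM (labelled 3A). TGFBI, a matrix protein that TGF-beta induces, was at 299, 263 and 268 CPM (labelled wild type) and 516, 430.0 and 494 CPM (labelled 3A), again below no MYCN at 830.4 ± 37.6 CPM (SD, n = 3). Against no MYCN, 10 of 22 collagen genes were lower for the label wild type and 13 for the label 3A.

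Of the transcription factors that mark the mesenchymal state of neuroblastoma, 17 of 32 were higher and 5 lower in the libraries labelled wild type (median 0.44). AEBP1 was at 81.7, 56.8 and 56.8 CPM (labelled wild type) and 26.3, 37.3 and 33.4 CPM (labelled 3A). SMAD3 (0.92, SE 0.13), NOTCH2 (0.81, SE 0.12) and RUNX1 (0.74, SE 0.12) were higher. The drivers of epithelial to mesenchymal transition SNAI1 (-1.71, SE 0.27) and SNAI2 (-0.58, SE 0.17) and CREG1 (-1.09, SE 0.12) were lower, as was ID1, so the list did not move as a whole. SNAI2 lost its call with the offset for exonic length. Of 12 adrenergic genes that could be tested, 3 were higher (SATB1, TBX2 and GATA2) and 0 lower.

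Genes that interferon induces were higher in 15 and lower in 3 of 35 cases (median 0.42). OAS3, a synthase that senses double-stranded RNA, was at 41.2, 38.3 and 28.7 CPM in the libraries labelled wild type and 9.70, 8.35 and 8.67 CPM in those labelled 3A, and UBE2L6, the enzyme of the E2 class that conjugates ISG15, at 34.8, 31.9 and 37.4 CPM (labelled wild type) and 16.4, 14.9 and 15.9 CPM (labelled 3A). GBP1, a guanylate-binding GTPase, was at 51.3, 52.8 and 46.5 CPM (labelled wild type) and 23.2, 30.2 and 27.7 CPM (labelled 3A). The RNA sensor RIGI (0.73, SE 0.19) was higher. IFITM2 (-0.45, SE 0.09), IFITM3 (-0.48, SE 0.09) and ISG15 (-0.60, SE 0.15) were lower, and IFIT1 (0.26, SE 0.22) and USP18 (-0.02, SE 0.23) were not called. For the presentation of antigen by MHC class I 8 of 20 tested genes were higher and 1 lower, with TAP1 (0.96, SE 0.17), which imports peptides, and the peptide trimmer ERAP1 (0.97, SE 0.13) among the higher genes and the proteasome subunit PSMB10 (-0.61, SE 0.12) the lower one. Against no MYCN the interferon list had a median of 0.23 for the label wild type and -0.22 for the label 3A.

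Guidance cues and receptors of the SLIT, semaphorin and ephrin families were higher in 14 and lower in 3 of 38 cases (median 0.34). Without library 1 labelled wild type 10 were higher and 4 lower, with a median of 0.20, without library 1 labelled 3A the median was 0.52, and with offsets for both exonic length and chromosome 0.17. Besides SLIT2, SEMA7A, a membrane-anchored semaphorin, was at 85.7, 85.3 and 89.6 CPM (labelled wild type) and 30.4, 41.5 and 39.3 CPM (labelled 3A), and NRP1, a receptor of class 3 semaphorins and of VEGF, at 132, 114 and 101 CPM (labelled wild type) and 57.2, 55.2 and 41.9 CPM (labelled 3A). SLIT3 (-0.48, SE 0.13), the receptor PLXND1 (-0.61, SE 0.15) and the ligand EFNA1 (-1.19, SE 0.17) were lower. In the TGF-beta, activin and BMP pathway 14 of 33 tested genes were higher and 5 lower. FST, CCN2 and SMAD3 were higher, and FSTL3, the feedback gene PMEPA1 (-0.96, SE 0.12), LTBP3, TGFB3 (-0.98, SE 0.31) and GDF6 (-1.04, SE 0.36) lower. In edgeR's test LTBP3 lost its call without library 2 or 3 labelled wild type or library 2 or 3 labelled 3A (adjusted p = 0.057 to 0.16), TGFB3 without library 2 or 3 labelled wild type or library 3 labelled 3A (adjusted p = 0.055 to 0.12) and GDF6 without library 2 labelled wild type or library 2 labelled 3A (adjusted p = 0.11 to 0.17). With offsets for exonic length and chromosome, 8 genes of this pathway were higher and 5 lower. Leaving out a single library changed the lower genes to 2 (without library 2 labelled wild type) or 3 (without library 3 labelled wild type or library 2 or 3 labelled 3A).

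The respiratory chain went the other way. Of 54 tested nuclear genes for its subunits, 34 were lower and 0 higher in the libraries labelled wild type, with a median of -0.33. COX5B, a subunit of complex IV, was at 118, 143 and 156 CPM in the libraries labelled wild type and 207, 232 and 236 CPM in those labelled 3A. NDUFB1, of complex I, was at 36.4, 52.4 and 57.5 CPM (labelled wild type) and 86.1, 88.2 and 90.1 CPM (labelled 3A), UQCRFS1, the iron-sulfur protein of complex III, at 110.5, 129 and 148 CPM (labelled wild type) and 184, 202 and 193 CPM (labelled 3A), and ATP5F1D, of the ATP synthase, at 96.9, 114 and 130.2 CPM (labelled wild type) and 162, 173 and 201 CPM (labelled 3A). The labels did not overlap in these 4 genes, but named members of a list were chosen by small p or after their values were seen. Over the list the ranges did not overlap in 35 of 54 genes, beside 40.4% of all tested genes. Against no MYCN the list stood near 0 for the label wild type, with 8 higher and 2 lower (median 0.06), and was raised for the label 3A, with 42 higher and 1 lower (median 0.46). Of 13 mRNAs that the mitochondrial genome encodes, 1 was higher between the forms (MT-ND4L, 0.64, SE 0.16), and it lost its call without library 1 labelled wild type (adjusted p = 0.083 in edgeR's test). Without library 1 labelled 3A, 8 of the 13 were higher, and without library 2 labelled 3A 2 were lower.

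Cytosolic ribosomal protein genes, whose single values are uncertain because of their many pseudogenes, were lower in 34 and higher in 0 of 76 cases (median -0.24). RPS29 was at 248, 334 and 372 CPM in the libraries labelled wild type and 498, 503 and 513 CPM in those labelled 3A, and library 1 labelled wild type was the lowest of all. RPL38 was at 689, 869.8 and 969 CPM (labelled wild type) and 1257, 1145 and 1314 CPM (labelled 3A). Against no MYCN, 65 of 76 were higher and 0 lower for the label 3A (median 0.42), and 10 and 0 for the label wild type (median 0.15). The number that were lower between the forms was 24 without library 1 labelled wild type, with a median of -0.13, and 54 without library 3. Genes that host snoRNAs were lower in 7 and higher in 2 of 22 cases, with SNHG16 (-0.43, SE 0.08) and SNHG5 (-0.48, SE 0.11) lower and SNHG1 (0.48, SE 0.09) and SNHG3 higher, SNHG3 losing its call in edgeR's test without library 2 or 3 labelled wild type or library 1 or 3 labelled 3A or library 1, 2 or 3 labelled no MYCN (adjusted p = 0.054 to 0.15), and 4 were lower with the offset for exonic length. The number higher was 1 without library 1, 2 or 3 labelled no MYCN, library 2 or 3 labelled wild type or library 1 or 3 labelled 3A. Of the heat shock chaperones and CCT ring subunits 8 of 27 were lower and 1 higher (5 lower without library 2 labelled 3A). HSP90AA1, the inducible HSP90, was at 4861, 5422 and 5692 CPM (labelled wild type) and 8067, 7721 and 8255 CPM (labelled 3A). It lies on chromosome 14, whose genes as a whole were lower (median -0.23), and it kept its call with an offset for chromosome.

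Many typical targets of MYC family factors were raised over no MYCN in both groups that received doxycycline. In the libraries labelled wild type 23 of 45 were higher and 1 lower than in no MYCN (median 0.24), and in those labelled 3A 27 and 0 (median 0.33). ODC1, the first enzyme of polyamine synthesis, was at 711 ± 12.8 CPM (SD, n = 3) with no MYCN, and at 1212, 1322 and 1432 CPM (labelled wild type) and 1142, 1168 and 1093 CPM (labelled 3A). CDK4, the cyclin-dependent kinase whose promoter with 3 E-boxes is printed above, was at 433 ± 20.7 CPM (SD, n = 3) with no MYCN and at 524, 578 and 652 CPM (labelled wild type) and 587, 608 and 619 CPM (labelled 3A). Between the forms CDK4 differed by -0.05 (SE 0.09, adjusted p = 0.71 in edgeR's test).

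Between the forms 9 of these 45 targets were higher and 17 lower in the libraries labelled wild type (median -0.05, and -0.08 without library 3 and -0.02 without library 1 labelled wild type). TFRC, the transferrin receptor, was at 202, 168 and 149.5 CPM in the libraries labelled wild type and 92.3, 94.9 and 77.4 CPM in those labelled 3A, and SLC7A5, a transporter of large amino acids, at 277, 251 and 258 CPM (labelled wild type) and 169, 185 and 181 CPM (labelled 3A). RCC1, the exchange factor of Ran, was higher too (0.53, SE 0.08). MRPL12, of the mitochondrial ribosome, was at 269, 315 and 350.3 CPM (labelled wild type) and 458, 544 and 589 CPM (labelled 3A), and UMPS (-0.39, SE 0.08) and NME1 (-0.54, SE 0.09), both of nucleotide synthesis, were lower. The number that were lower was 11 without library 2 labelled wild type or without library 2 labelled 3A. For ribosome biogenesis 36 of 55 genes were higher than no MYCN for the label wild type and 39 for the label 3A, and between the forms 6 were higher and 10 lower. NOP16 was at 121 ± 8.74 CPM (SD, n = 3) with no MYCN, 148, 172 and 179 CPM with the label wild type and 202, 232 and 239.9 CPM with the label 3A. PES1 (-0.53, SE 0.10) and NOP56 (-0.37, SE 0.08) were lower, and the polymerase I subunit POLR1A (0.55, SE 0.13) was higher. The higher genes of this list numbered 3 without library 2 labelled wild type or library 1 or 2 labelled 3A.

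The share of promoters with an E-box was near that of all genes on both sides of the comparison of the forms. CACGTG was in 8.69% of the promoters of genes higher in the libraries labelled wild type than in those labelled 3A and in 9.69% of the lower ones, beside 8.90% of all. Of the list of MYC targets 12 of 39 promoters held it. Against no MYCN it was in 11.1% of higher and 6.70% of lower genes for the label wild type, and in 10.9% and 7.75% for the label 3A. These shares are a description without a test, and the last 2 comparisons share the no MYCN libraries.

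Of the exosome, which the title of the series names, 4 of 15 tested subunits and 7 of 26 targeting and cap-binding factors were called, beside 30.3% of all tested genes. Among the subunits EXOSC10 was higher in the libraries labelled wild type and EXOSC4, EXOSC7 and EXOSC9 were lower. EXOSC10 was at 106, 91.5 and 82.6 CPM in the libraries labelled wild type and 62.6, 57.1 and 64.9 CPM in those labelled 3A (difference 0.60, SE 0.11), with no MYCN at 81.1 ± 10.5 CPM (SD, n = 3). EXOSC4, a ring subunit, was at 13.9, 14.8 and 19.1 CPM (labelled wild type) and 28.04, 26.9 and 28.5 CPM (labelled 3A) (difference -0.81, SE 0.15). EXOSC7 (-0.33, SE 0.12) lost its call without library 1 or 2 labelled wild type or library 2 or 3 labelled 3A (adjusted p = 0.092 to 0.18 in edgeR's test), and EXOSC9 (-0.26, SE 0.08) without library 1 labelled wild type or library 3 labelled 3A (adjusted p = 0.055 to 0.082 in the same edgeR test). Among the targeting and cap-binding factors, ZC3H18 (0.67, SE 0.10), RBM7 (0.49, SE 0.13), ZC3H4 (0.36, SE 0.11), WDR82 (0.25, SE 0.08) and the cytoplasmic exonuclease XRN1 (0.60, SE 0.21) were higher, and NRDE2 (-0.65, SE 0.13) and SKIC8 (-0.48, SE 0.09) lower. Without library 1 labelled wild type 2 were higher, 9 without library 3 of that label, and with an offset for exonic length 2, since ZC3H4, WDR82 and XRN1 then lost their calls. WDR82 lost its call in edgeR's test also without library 1 or 2 labelled wild type or library 1 or 2 labelled 3A (adjusted p = 0.051 to 0.1), XRN1 without library 1 labelled wild type or library 3 labelled 3A (adjusted p = 0.21 to 0.22), with a difference of 0.36 to 0.38, and ZC3H4 without library 1 labelled wild type (adjusted p = 0.082).

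SIN3 and NCOR corepressors carry histone deacetylases to DNA. In the list of SIN3, HDAC and NCOR corepressors 8 of 34 tested genes were higher (23.5%) and 5 lower (14.7%), beside 15.8% and 14.5% of all genes. TBL1X, of the NCOR complex, was at 37.8, 33.1 and 29.4 CPM (labelled wild type) and 17.1, 18.6 and 19.3 CPM (labelled 3A). The scaffolds SIN3A (0.59, SE 0.16) and SIN3B (0.45, SE 0.11) were higher, as were the list members MBD2, MTA2, GATAD2A and RBBP4 (0.31 to 0.53). SIN3A, GATAD2A and RBBP4 were not called with the offset for exonic length, nor was MBD2 with that for chromosome. The deacetylase HDAC2 was at 187, 212 and 202 CPM (labelled wild type) and 278, 264 and 258 CPM (labelled 3A), and ARID4A, ARID4B, SAP18 and GPS2 were lower as well (-0.55 to -0.41). SIN3A (adjusted p = 0.072) and GATAD2A (0.061) lost their calls without library 1 labelled wild type, and GPS2 lost it without library 2 labelled wild type or library 1 or 3 labelled 3A (adjusted p = 0.051 to 0.058), in edgeR's test. With an offset for exonic length 5 were higher and 9 lower. In the network of MYC and MAX 3 of 18 tested genes were higher (16.7%) and 2 lower (11.1%), beside 15.8% and 14.5% of all genes. MYC itself was at 5.30, 8.31 and 6.78 CPM (labelled wild type) and 4.77, 4.83 and 3.00 CPM (labelled 3A) and 11.4 ± 1.31 CPM (SD, n = 3) with no MYCN. MYC (0.69, SE 0.23), the ubiquitin ligase HUWE1 (0.54, SE 0.19) and the repressor MXD1 (0.42, SE 0.15) were higher and AURKA (-0.25, SE 0.08), the kinase that stabilises MYCN protein, and MXD3 (-0.52, SE 0.13) lower. MYC lost its call in edgeR's test without library 2 labelled wild type or library 3 labelled 3A (adjusted p = 0.13 to 0.14). MXD1 lost its call without library 1 or 2 labelled wild type or library 2 or 3 labelled 3A (adjusted p = 0.08 to 0.19) and HUWE1 without library 1 labelled wild type or library 1, 2 or 3 labelled 3A (adjusted p = 0.094 to 0.23), also in edgeR's test. With all libraries kept, HUWE1 also lost its call with DESeq2 (adjusted p = 0.12 in its Wald test) and with scaling by library totals (edgeR adjusted p = 0.064). Without library 1 labelled wild type HUWE1 differed by 0.22. No gene of the list was higher without library 3 labelled 3A, 1 without library 1 labelled wild type or library 2 labelled 3A, and 5 without library 3 labelled wild type. AURKA lost its call with each of the offsets for exonic length and chromosome.

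Depletion of EXOSC10 in IMR-32, which shares no samples with SHEP, was set beside the comparison of the forms. MYCN itself was at 1087 to 1115 CPM in the IMR-32 controls and at 595 to 605 CPM on depletion. The difference was -0.87 (adjusted p = 5.9e-87 in edgeR's test without the filter on low counts), and its part in the values below was not tested. On depletion 4639 of 17103 genes (27.1%) differed, and 12952 genes were tested in both lines. Of the 2116 genes among these that were higher in the libraries labelled wild type than in those labelled 3A, 17.2% were higher on depletion and 16.6% lower. Of the 1997 lower genes 11.02% were higher on depletion and 22.8% lower, beside 13.05% and 15.6% of all 12952. Seen from depletion, 21.5% of its 1690 higher genes and 17.5% of its 2014 lower genes were higher with the label wild type, beside 16.3% of all 12952, and 13.02% and 22.6% were lower, beside 15.4% of all. Across genes the log2 fold changes correlated with Spearman's rho of 0.08 and Pearson's r of 0.05, as a description over genes, which are not independent.

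On depletion 71 of 76 ribosomal protein genes were lower and 0 higher, and of 54 respiratory chain genes 28 were lower and 1 higher. The integrated stress response, the ATF4 program of amino acid supply, went apart: 16 of 37 genes were higher and 4 lower in the libraries labelled wild type (median 0.24), while 37 of 40 were lower on depletion and 0 higher (median -0.84). SLC7A11, the cystine transporter, was at 92.8, 93.2 and 68.9 CPM (labelled wild type) and 42.1, 42.6 and 31.9 CPM (labelled 3A), a difference of 1.13 (SE 0.13), and differed by -2.19 (SE 0.07, adjusted p = 1.3e-39) on depletion in edgeR's test. PPP1R15A, the phosphatase subunit that ends the stress response, was at 118, 113 and 139 CPM (labelled wild type) and 48.8, 49.6 and 53.9 CPM (labelled 3A) and differed by -0.64 (SE 0.12, adjusted p = 7.9e-06) on depletion in the same edgeR test. Without library 2 labelled wild type 10 genes of the program were higher between the forms, and without library 2 labelled 3A 9. The lower ones were DDIT4, CEBPB, CTH and CBS. In edgeR's test CEBPB lost its call without library 1 or 2 labelled wild type or library 2 or 3 labelled 3A or library 2 labelled no MYCN (adjusted p = 0.056 to 0.16), CTH without library 2 or 3 labelled wild type or library 1 or 3 labelled 3A (adjusted p = 0.064 to 0.24) and CBS without library 2 labelled wild type or library 3 labelled 3A (adjusted p = 0.077 to 0.079), and 1 gene was lower without library 2 labelled wild type or library 3 labelled 3A. NF-kB genes were higher in 3 and lower in 3 of 24 cases on depletion.

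The difference between the forms was uneven across chromosomes, in genes with a mean log2 CPM of at least 3. On chromosome 18, 85 of 142 genes were higher and 1 lower in the libraries labelled wild type, and the median was 0.41. On chromosome 10 the median was 0.21, with 133 of 385 genes higher and 30 lower. Chromosomes 14 (-0.23), 22 (-0.24), 17 (-0.15) and 20 (-0.12) lay on the lower side, with 148 of 344 genes lower on chromosome 14. Relative to the mean of the 9 libraries, chromosome 18 was at 0.30, 0.25 and 0.24 in the libraries labelled wild type, at -0.08, -0.13 and -0.24 in those labelled 3A and at -0.05, -0.13 and -0.14 in no MYCN. Chromosome 14 was at -0.15, -0.14 and -0.16 in the libraries labelled wild type. It was at 0.09, 0.07 and 0.05 in those labelled 3A and at 0.08, 0.08 and 0.09 in no MYCN. The 3 libraries labelled wild type thus stood apart from the other 6 on both chromosomes, with every library on the same side.

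The shift ran along the length of both chromosomes: in windows of 20 Mb the median was 0.26 to 0.59 on chromosome 18 and -0.26 to -0.18 on chromosome 14. Against no MYCN, chromosome 18 was at 0.39 for the label wild type and at -0.05 for the label 3A, and chromosome 14 at -0.24 and -0.02. In IMR-32 the chromosome medians on depletion ran from -0.05 to 0.02. Copy number was not measured in these files, and its part was not tested. With chromosomes 10, 14, 17, 18, 20 and 22 left out, of the NF-kB genes left 15 of 26 were higher, of the YAP targets 18 of 30, of the ERK genes 15 of 24, and of the respiratory chain 31 of 48 were lower. Of the MYC targets left 8 were higher and 10 of 35 lower, where 17 of 45 were lower on all chromosomes. Over all genes left, 1968 of 11959 were higher and 1503 lower. Lower genes went from 7 of 50 to 2 of 33 in the mitosis list and from 7 of 48 to 3 of 37 in the G1/S list. Among the mesenchymal factors they went from 5 of 32 to 2 of 25, and in the repair list from 2 of 35 to 0 of 27. Chromosomes 14, 17, 20 and 22 lay on the lower side, so leaving them out was bound to remove lower genes. Of the genes named above, CXCL12, ARHGAP22, NRP1, COL13A1, MYOF, VCL and ANKRD1 are among those on chromosome 10, and they kept their calls with an offset for chromosome. Under that offset ARID4A, AURKA, CAV2, CEBPB, ETV4, GPS2, ITGB8, MBD2, ODC1, SNHG3, TGFB3, TNFAIP2, VIM, WDR82 and XRN1 lost theirs.

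**Figure D4:**
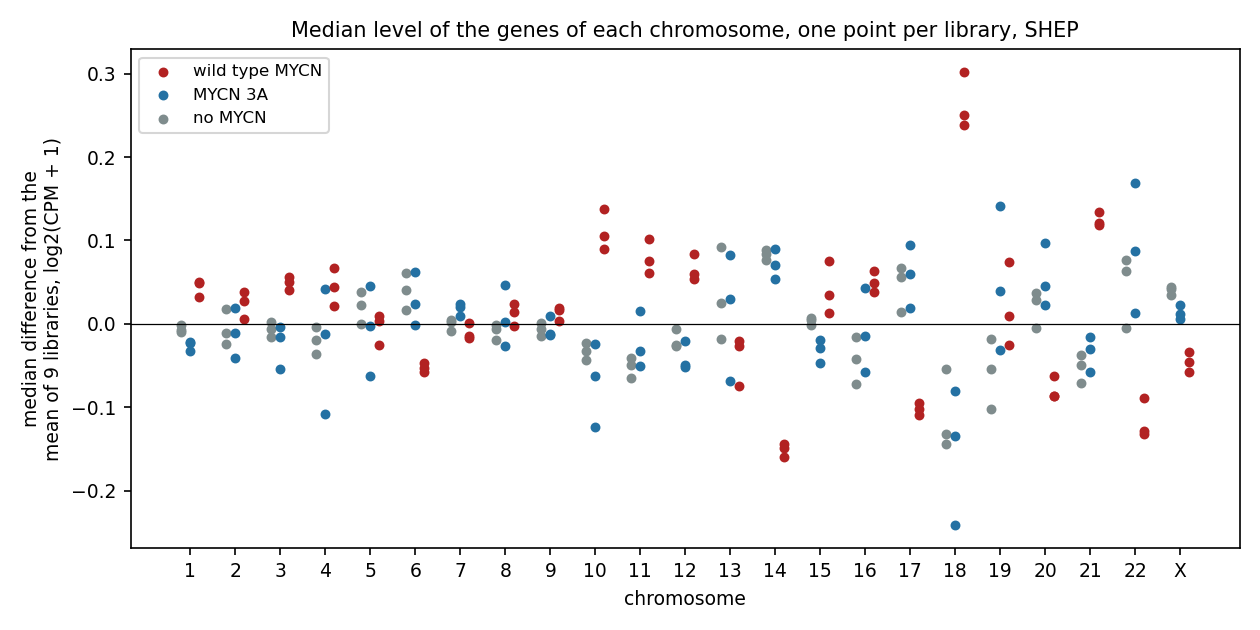
Median of the genes of each chromosome relative to the mean of 9 libraries, as log2(CPM + 1), with a point per library. On chromosome 18 the 3 libraries labelled wild type were at 0.30, 0.25 and 0.24, above the other 6, and on chromosome 14 at -0.15, -0.14 and -0.16, below the other 6.

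The difference also followed the exonic length of genes. For models of 1000 to 2000 bases 4.81% of 1600 genes were higher in the libraries labelled wild type and 24.2% lower (median -0.18), and above 8000 bases 31.02% of 2344 genes were higher and 7.59% lower (median 0.20). Against no MYCN the medians of the longest genes were -0.02 for the label wild type and -0.24 for the label 3A. Above 8000 bases the libraries labelled wild type stood at 0.21, 0.05 and -0.04 relative to the mean of all 9, those labelled 3A at -0.10, -0.11 and -0.17 and no MYCN at 0.13, 0.05 and 0.01. The replicates of the label wild type were spread, with library 3 nearest to 3A. In IMR-32 the same bin was at 0.04 on depletion. RNA integrity was not given in the sources used here, and its part was not tested.

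An offset for exonic length in each library, added after this was seen, left 4259 genes called, 2132 higher and 2127 lower, and 74.2% of the calls between the forms were kept. The NF-kB list was then 18 higher and 1 lower of 32, the ERK list 17 higher and 3 lower of 27, the YAP list 21 higher and 0 lower of 33, the interferon list 17 higher and 3 lower of 35 and the respiratory chain 1 higher and 28 lower of 54. Ribosomal proteins were 3 higher and 35 lower of 76. The medians were then 0.47 for NF-kB, 0.62 for ERK, 0.37 for YAP and 0.40 for interferon. They were -0.22 for the respiratory chain and -0.19 for ribosomal proteins. Before the offset the YAP list stood at 0.55 and the respiratory chain at -0.33. The splicing factors of the SR and hnRNP families, 14 higher and 2 lower of 44 before, became 9 higher and 7 lower of 44, and without library 2 labelled wild type or library 2 labelled 3A 9 were higher. Of the genes named above for their calls, AURKA, CEBPB, CTH, GATAD2A, HUWE1, MT-ND4L, MXD1, RBBP4, RHOB, SIN3A, SNAI2, TEAD2, TNIP2, WDR82, XRN1 and ZC3H4 lost them with this offset. Over all named genes that were called, 46 lost them with 1 or more of the offsets for length, chromosome or both, and 78 moved by over 1.5 times.

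**Figure D5:**
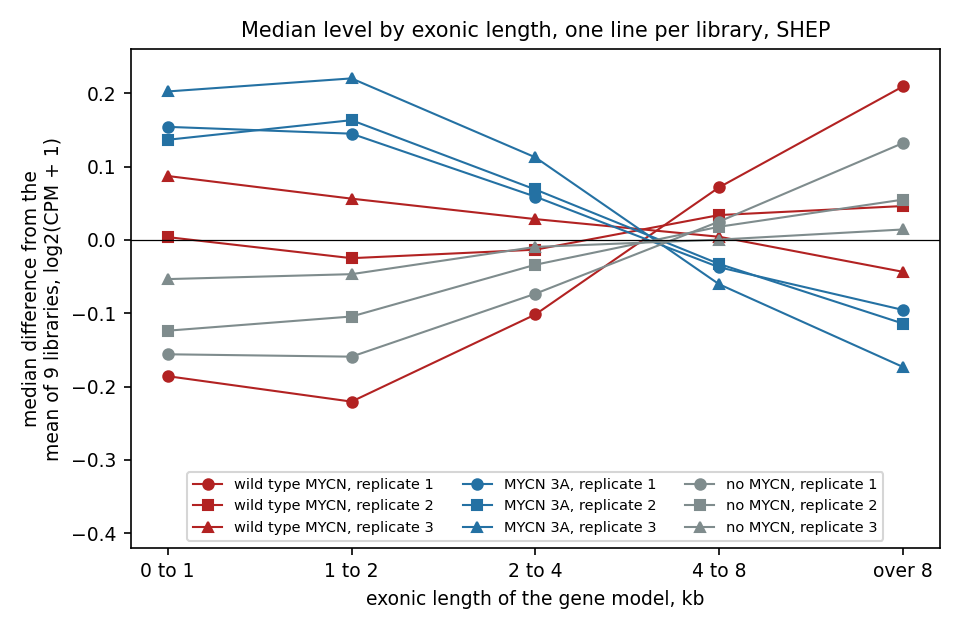
Median level of genes by the exonic length of their models, relative to the mean of 9 libraries as log2(CPM + 1), with a line per library. The 3A libraries (blue) lie above 0 for the shortest genes and below 0 for the longest, library 1 labelled wild type rises from -0.19 to 0.21, and libraries 2 and 3 of that label lie between.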

How the data were processed

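Polyadenylated RNA was measured in 9 SHEP and 6 IMR-32 libraries, grouped by their titles. The deposited values are raw counts per gene. Per the file headers, the authors counted the SHEP reads with featureCounts 2.0.3 against Ensembl release 87 (hg19) with strand setting 2 and both read ends mapped, where an overlap of 10 bases sufficed and a read over several genes counted for each. STAR 2.7.10a is listed in the submitters' processing notes, and settings for IMR-32 are not given in the sources used here. Of counts from 1 to 10, 76.3% were even, as arises when both ends of a fragment count, so counts are not independent molecules and floors cover counting error only. Symbols came from a table that matched 89.8% of gene IDs.

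In R 4.3.3, edgeR 4.0.16 fitted all 9 SHEP libraries together (filterByExpr, TMM, robust quasi-likelihood F test, Benjamini-Hochberg at 0.05), and IMR-32 apart. The step was tested on simulated data. CPM are scaled by TMM, n = 3 per group, and log2 CPM used a prior count of 2. The members and the 44 gene lists were chosen with earlier results of these data known. The naming rule takes MYCN, the 15 genes most higher and most lower among those called whose mean log2 CPM reached 3 and whose ranges did not overlap, up to 4 called members with the smallest p of each list, and all called members of the exosome, MYC network and SIN3 lists. A few genes that meet the rule are not reported here. Other list members named in the text were chosen after their values were seen. Of the list genes, 11 symbols found no ID. Alternatives were other scaling, no filter, DESeq2 1.42.0, other sample sets and, chosen after seeing the data, offsets for exonic length and chromosome.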

Additional observations from a re-analysis of the deposited data

How the results depend on the processing

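The number of genes called between the forms was 4527, and it was 4498 with RLE size factors, 4627 with DESeq2, 4277 without a filter and 3966 from the 6 libraries alone. Leaving out each library in turn gave 3261 to 4901 calls, the fewest without library 1 labelled wild type, which kept 68.8% of the calls. For 3A against no MYCN the same range was 2166 to 4451 against 3806. No call between the forms turned to the opposite direction under any of these, and 1 gene did with offsets for both exonic length and chromosome. Of 235 named genes, 181 kept their side of the threshold in all 19 settings and 54 changed it in at least 1. Scaling by library totals alone cost HUWE1, ITGB8, CAV2, LTBP3, CEBPB and TEAD2 their calls (edgeR adjusted p = 0.051 to 0.093). TYMS, on chromosome 18, turned from 0.28 to -0.15 with the offset for chromosome and CEBPB from -0.26 to 0.0298 with both offsets; neither was called there. In each library, the offset for chromosome removes the median of the chromosome, and that for exonic length removes a smooth curve fitted against length.

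Same-numbered libraries were not paired by the labels, and their residuals correlated at -0.03 to 0.14, with 11 of 18 library by group comparisons highest for the own number. When the replicate number was fitted as a block, 5414 genes were called between the forms, 4184 and 4794 for the labels wild type and 3A against no MYCN and 5251 in IMR-32. MYCN was tested without the filter only, with adjusted p = 0.51 between the forms in edgeR's test. The depth of 11638859 to 15353505 counts leaves a gene with 0 counts bounded at 0.186 to 0.264 CPM in a library, if counts are taken as independent. Where both ends of a fragment count, that bound is too low.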

Other observations

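Other pathways of growth and metabolism held calls in both directions, beside 15.8% higher and 14.5% lower over all tested genes. Of hypoxia genes 12 of 26 were higher and 3 lower in the libraries labelled wild type. The vasodilator ADM was at 42.1, 47.3 and 51.5 CPM (labelled wild type) and 23.7, 22.5 and 26.3 CPM (labelled 3A) and the glucose transporter SLC2A1 at 210.2, 211 and 206 CPM (labelled wild type) and 167, 162 and 161 CPM (labelled 3A), while the prolyl hydroxylase P4HA2 (-0.66, SE 0.13) was lower. Of glycolysis genes 11 of 27 were higher (6 without library 2 labelled 3A) and 2 lower. With offsets for both exonic length and chromosome 6 were higher and 4 lower. HK1 (0.62, SE 0.09) and ENO2 (0.98, SE 0.17) were higher, and LDHB (-0.45, SE 0.08) and PDHA1 (-0.53, SE 0.09), an entry point into the citric acid cycle, lower. Among purine and pyrimidine enzymes, CTPS1 (0.38, SE 0.08) was higher and UMPS and NME2 (-0.49, SE 0.10) lower. Serine and folate enzymes had 4 of 19 higher, PHGDH (0.45, SE 0.10) among them, and 1 lower, SHMT1 (-0.41, SE 0.08).

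In lipid and polyamine metabolism, the sterol regulator SREBF1 (-0.74, SE 0.10) and ACAT2 (-0.83, SE 0.16) were lower. SAT2 (-0.86, SE 0.13) and SAT1 (-0.42, SE 0.12) were lower and the polyamine transporter ATP13A3 (0.96, SE 0.18) higher, and SAT1 lost its call without library 1 labelled wild type (edgeR adjusted p = 0.055), with the offset for exonic length (-0.27, edgeR adjusted p = 0.068) and with both offsets (edgeR adjusted p = 0.079).

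The cell cycle lists had calls in both directions. For mitosis 11 of 50 were higher (22%) and 7 lower (14%), and for G1/S 10 of 48 (20.8%) and 7 (14.6%). Over all tested genes 15.8% were higher and 14.5% lower. Without library 1 or 2 labelled wild type or library 2 labelled 3A, 4 or 5 G1/S genes were higher, and without these libraries, library 3 labelled 3A or library 2 labelled no MYCN, 3 or 4 mitosis genes were lower. CDC25A, a phosphatase of cell cycle entry, was at 109, 97.2 and 97.2 CPM (labelled wild type) and 62.7, 68.4 and 64.01 CPM (labelled 3A). Against no MYCN, 14 mitosis genes were lower for the label wild type and 24 for the label 3A. Of 31 p53 targets 6 were higher (19.4%), FAS (1.13, SE 0.18) among them, and 4 lower (12.9%), PHLDA3 (-0.76, SE 0.10) among them. In the repair list 8 of 35 were higher and 2 lower, with 3 to 5 higher without library 1 or 2 labelled wild type or library 2 or 3 labelled 3A. In the list of termination and 3' end processing 9 of 50 were higher, with CPSF7 (0.52, SE 0.09) and NUDT21 (0.39, SE 0.08), and 4 lower, and 4 were higher without library 1 labelled wild type, 5 without library 3 labelled 3A.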
